A study of Mus musculus with 4 samples.

Results

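The nuclear genes for subunits of the mitochondrial respiratory chain and ATP synthase were compared between ACKR4-positive and ACKR4-negative endothelial cells of mouse spleen. Members were all gene names on the array that begin with Ndufa, Ndufb, Ndufc, Ndufs or Ndufv and a digit, are Sdha to Sdhd, or begin with Uqcr, Cox4 to Cox8 plus a letter, or Atp5 plus a letter. These were 85 names on 124 probes, of 39429 probes in all. Of the 85, 83 had signal high enough to be tested, among 17362 tested genes, with 37 in complex I, 4 in complex II, 8 in complex III, 16 in complex IV and 18 in complex V, the ATP synthase. Cox7b2 and Cox8c, isoforms known from testis, were not well above background on any array.

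Both groups came from Ackr4GFP/wt mice, which carry green fluorescent protein (GFP) at 1 Ackr4 allele, so both carry the reporter allele and differ in whether it was active. ACKR4 is an atypical chemokine receptor that takes up chemokines. Spleens were digested, red cells were lysed, CD45-bearing cells were depleted, and live single CD45- CD31+ cells were sorted as GFP-positive or GFP-negative, with cells of 2 to 3 mice pooled in each of 2 independent sorts. This gave 4 one-colour Agilent arrays, with n = 2 per group and replicate number equal to sort number. The age and background strain of the mice are not given in the sources used here. Groups are populations defined by the surface proteins CD45 and CD31 and 1 reporter. In such bulk RNA fewer cells of a type and less RNA per cell cannot be told apart.

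The respiratory chain lies in the inner mitochondrial membrane. Complexes I and II take electrons from NADH and succinate, complex III passes them to cytochrome c, and complex IV, cytochrome c oxidase, passes them to oxygen. Complexes I, III and IV pump protons, and complex V uses the proton gradient to make ATP. Most subunits are needed in every respiring cell, but complex IV has isoforms of heart and skeletal muscle, lung or testis. Quiescent endothelium is known to rely largely on glycolysis for ATP.

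Signal was well above background for 54.9% to 58.3% of probes, no spot was saturated, and all 4 arrays lay on 1 slide and in 1 scan. The number of arrays limits the precision. Spike-in RNA, added in a known amount, gave a median signal of 837 on the first ACKR4-negative array and 2749 to 3489 on the rest. Ackr4 itself was not well above background on the ACKR4-negative arrays and was above it on both ACKR4-positive ones, with levels of -7.53 and -7.50 against -0.21 and 2.55. Pecam1, which encodes CD31, and the rest of the 12 pan-endothelial genes were well above background on all 4 arrays, but 3 of the 12 were called lower in ACKR4-positive cells (4 lower and 1 higher with the replicate block described below, limma) and 7 were lower in both sorts, with a median log2 fold change of -0.33 and a lowest value of -5.24 for Emcn. Over all genes 3.71% were called lower, and 34.5% were lower in both sorts. With the block 8.55% of all genes were called lower and 6.75% higher. Erythroid genes summed to a level of 487 on the first ACKR4-negative array and to 18.3 to 69.4 on the rest, where 1 equals the 75th percentile of an array's signal. In spike-in and erythroid signal that array stands apart. Without it the median log2 fold change went from 0.13 to -0.24 in complex I, from 0.02 to -0.02 in complex II, from -0.09 to -0.26 in complex III, from 0.02 to -0.32 in complex IV and from -0.11 to -0.34 in complex V. Among the members named below, Ndufa5, Ndufa13, Ndufa4, Uqcr11, Cox6b1, Cox7a2, Cox7b, Atp5g1, Atp5g3 and Atp5j went from values above 0 to values below 0 without it. None of these members was called with all 4 arrays. Such shifts are not particular to this array. Leaving out each single array in turn gave a median over all members between -0.42 and 0.48, against 0.03 with all 4.

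Most respiratory chain genes had similar signal in both groups. Of the 83 tested members, 0 were called higher and 0 lower in ACKR4-positive cells (limma, adjusted p under 0.05 over all tested genes), against a background of 1.91% of all genes called higher and 3.71% called lower (5.62% in all). At an unadjusted p under 0.05 there were 3 members, Ndufa4l2, Cox7a1 and Cox8b, and 2823 of all genes. The median log2 fold change, ACKR4-positive minus ACKR4-negative, was 0.03 over the members and 0.04 over all genes. At least 2-fold differences between group means were seen for 4 members (4.82%), against 17.1% of all genes. Those 4 were Cox7a1 and Cox6a2, with higher signal in ACKR4-positive cells, and Ndufa4l2 and Cox8b, with lower signal, all of them tissue-restricted or hypoxia-linked isoforms. The 77 members other than the restricted isoforms lay between -0.76 and 0.53.

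The labels give both samples of a sort the same mouse number, so a fit with the sort as a replicate block was also made. It called 2 members higher, Cox7a1 and Cox6a2, and 2 lower, Ndufa4l2 and Cox8b, which is 4.82% of members against 6.75% of all genes called higher and 8.55% called lower in that fit. Cox6a2 and Ndufa4l2 entered the test only through the group in which they are high, so their calls give no support for a difference, and the calls of genes above background in both groups are those of Cox7a1 and Cox8b. The arrays of the 2 groups did not overlap for 12 members (14.5%), 5 higher and 7 lower, against 44.9% of all genes (23.3% higher and 21.6% lower). The sign differed between the sorts for 43 members (51.8%), against 26.9% of all genes. A p above the threshold does not show equal levels. Without the block the median SE was larger for the members than for all genes, at 0.448 against 0.344. The 95% interval of the difference lay within 2-fold in either direction for 7 of 83 members without the block and for 75 with it. With the block, the calls and intervals rest mostly on spread borrowed from all tested genes.

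**Figure D1:**
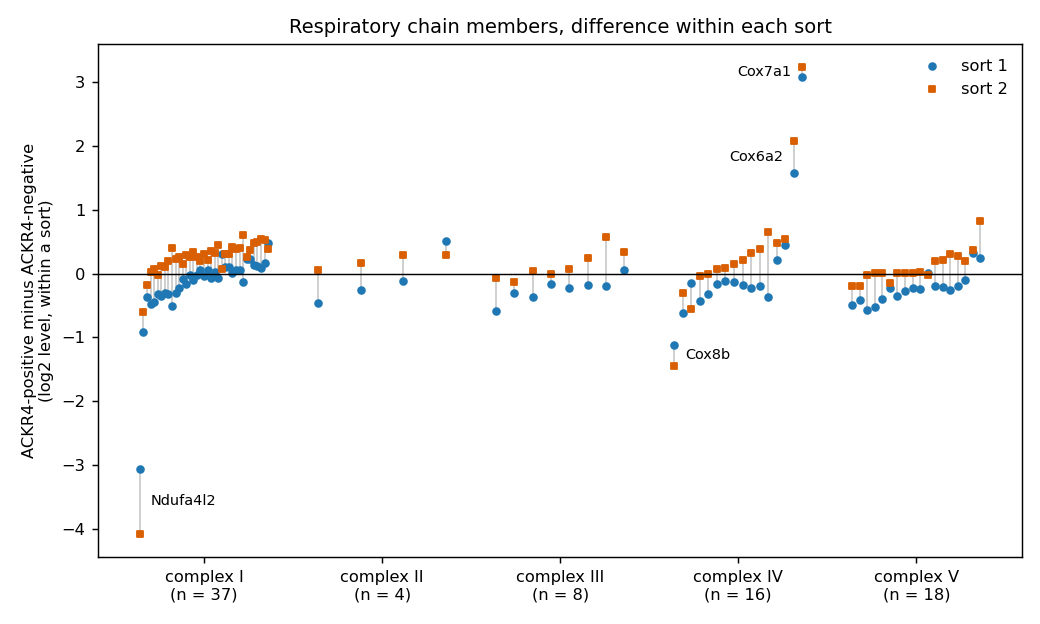
Difference in log2 level between ACKR4-positive and ACKR4-negative cells within sort 1 (circles) and sort 2 (squares) for the 83 tested members, grouped by complex and ordered by their mean difference, with a grey line joining the sorts. Cox7a1 and Cox6a2 lie above and Ndufa4l2 and Cox8b below the other members in both sorts.

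Complex I takes electrons from NADH through a flavin and a chain of iron-sulfur clusters held by its core subunits. The 7 nuclear core subunits, among them Ndufs7 and Ndufv1, had a median log2 fold change of 0.06, and Ndufs7, which holds an iron-sulfur cluster, had the highest at 0.34. Ndufv1, which binds NADH, had levels of 4.42 and 4.60 on the ACKR4-negative arrays against 4.10 and 4.58 on the ACKR4-positive ones, where a level is log2 signal relative to the 75th percentile of its array and the value of sort 1 comes first. Its groups overlapped, and its log2 fold change was -0.17 ± 0.31 (SE of the fit, n = 2 per group, adjusted p = 0.881 in limma).

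The 28 other complex I members with names outside the Ndufa4 pair surround the core and had a median log2 fold change of 0.13, with 13 higher and 1 lower in both sorts. In all tested genes, 38.6% were higher and 34.5% lower in both sorts. Ndufa5, which had the highest log2 fold change within complex I, stood at 3.35 and 4.93 on the ACKR4-negative arrays against 3.83 and 5.31 on the ACKR4-positive ones. Its groups overlapped, and the difference was 0.48 in sort 1 and 0.38 in sort 2 (0.43 ± 0.77, adjusted p = 0.880 in limma). Without ACKR4-negative replicate 1 the log2 fold change of Ndufa5 was -0.36, and without single arrays it ranged up to 1.22. Ndufa13, an accessory subunit also known as GRIM-19, had levels of 5.69 and 6.52 on the ACKR4-negative arrays against 5.72 and 6.83 on the ACKR4-positive ones, which overlapped too. Ndufa8, another accessory subunit and the lowest of these 28, had levels of 2.67 and 3.14 against 1.74 and 2.54. It was the only one of the 28 without overlap between groups (-0.76 ± 0.40, adjusted p = 0.495 in limma).

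Complex II, succinate dehydrogenase, is also an enzyme of the tricarboxylic acid cycle and has no subunit encoded in mitochondrial DNA. Its 4 genes had a median log2 fold change of 0.02. Sdha, the flavoprotein that oxidises succinate, had levels of 3.35 and 3.73 on the ACKR4-negative arrays against 3.86 and 4.02 on the ACKR4-positive ones. Both ACKR4-positive values lay above both ACKR4-negative ones, by a mean log2 difference of 0.40 ± 0.29 (adjusted p = 0.663 in limma). Sdhb, the iron-sulfur subunit, had values of 4.94 and 5.35 against 4.47 and 5.41, which overlapped (-0.20 ± 0.43).

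Complex III, cytochrome bc1, moves electrons from ubiquinol to cytochrome c. The core proteins Uqcrc1 and Uqcrc2 and the Rieske iron-sulfur protein Uqcrfs1 had log2 fold changes of -0.22, -0.08 and -0.09. Uqcrh, the hinge protein, had levels of 6.22 and 6.98 on the ACKR4-negative arrays against 5.64 and 6.91 on the ACKR4-positive ones, with overlap (-0.33 ± 0.55, adjusted p = 0.871 in limma). Uqcr11, a small accessory subunit, had the highest log2 fold change of the complex at 0.20 ± 0.50. Within sorts the median of the 8 genes was -0.22 in sort 1 and 0.05 in sort 2.

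Complex IV contained 3 of the 4 members that differed at least 2-fold. Cox7a1, the heart and skeletal muscle form of subunit VIIa, which is also known from brown fat, had levels of -2.30 and -0.77 on the ACKR4-negative arrays against 0.78 and 2.46 on the ACKR4-positive ones. All ACKR4-positive values were higher, and the difference was alike in the sorts, at 3.08 and 3.23. The fit gave a log2 fold change of 3.16 ± 0.80, or 8.92-fold (95% interval of the log2 value 1.04 to 5.27, adjusted p = 0.134 in limma). With the replicate block the interval was 2.61 to 3.70 and the adjusted p = 0.00114 in limma. Its tested probe was well above background on all 4 arrays and lies on chromosome 7 at 30970337 to 30970948 (mm9), a span wider than the probe.

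Cox7a2, the form of subunit VIIa found in most tissues, had levels of 4.13 and 4.95 on the ACKR4-negative arrays against 4.00 and 5.10 on the ACKR4-positive ones. Its groups overlapped and its log2 fold change was 0.01 ± 0.52. Cox7a2l, a related protein that joins complexes III and IV in supercomplexes, had lower values in both sorts, with a log2 fold change of -0.46 ± 0.37 (adjusted p = 0.699 in limma) and values from -0.46 to -0.39 over its 3 probes.

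Cox6a2, the heart and skeletal muscle form of subunit VIa, was not well above background on either ACKR4-negative array and so was tested only through the ACKR4-positive ones, where it is high. Its levels were -6.34 and -4.90 on the ACKR4-negative arrays against -4.76 and -2.83 on the ACKR4-positive ones. The groups did not overlap, although ACKR4-negative replicate 2 lay close to ACKR4-positive replicate 1. The difference was 1.58 in sort 1 and 2.07 in sort 2 (1.83 ± 0.84, adjusted p = 0.420, and 0.00792 with the replicate block, in limma). It was 2.73-fold when ACKR4-negative levels under the lowest signal that counts as well above background were raised to it. The file places the probe on chromosome 7 from 135349160 to 135349219 (mm9). Cox6a1, the widely expressed form, had levels of 7.33 and 8.10 against 7.16 and 8.16, and a log2 fold change of -0.05 ± 0.49.

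Cox8b, the muscle form of subunit VIII, went the other way. Its levels were -3.30 and -2.30 on the ACKR4-negative arrays against -4.41 and -3.74 on the ACKR4-positive ones, with no overlap. The log2 fold change was -1.28 ± 0.48, or 2.43-fold (adjusted p = 0.299, and 0.0200 with the replicate block, in limma), and the file places its probe on chromosome 7 from 148084852 to 148084911 (mm9). Cox8a, its widely expressed counterpart, had a log2 fold change of -0.01 ± 0.40. The 3 muscle isoforms thus did not share a direction.

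Genes that define heart and skeletal muscle cells gave low signal. Of 10 such genes, Ckm, Mb and Tnnt2 were not well above background on any array, 3 were tested, and all 3 were lower in ACKR4-positive cells in both sorts (0 called, and 3 called lower with the replicate block, limma, with 3 at an unadjusted p under 0.05). With the block 8.55% of all genes were called lower. On ACKR4-positive replicate 2 only 2 of the 10 were well above background, so the 3 tested genes did not all pass the filter in both groups. The summed level of the 10 was 0.27 to 0.85 in ACKR4-negative and 0.20 on both ACKR4-positive arrays. The part of muscle-type cells in the values of Cox7a1, Cox6a2 and Cox8b was not tested.

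Cox4i2, the form of subunit IV known from lung and from hypoxic cells, had levels of -1.77 and -1.38 on the ACKR4-negative arrays against -1.92 and -1.93 on the ACKR4-positive ones. Both ACKR4-positive values were lower, by a mean of 0.36 on the log2 scale (-0.36 ± 0.29, adjusted p = 0.703 in limma). Cox4i1, the general form, stood at -0.23 ± 0.40. Cox6b2, known from testis, and Cox6b1, the general form, had log2 fold changes of 0.14 ± 0.42 and 0.04 ± 0.59, and Cox7b of 0.09 ± 0.39. The 10 broadly expressed complex IV subunits had a median of 0.02 and none that was free of overlap between groups.

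Ndufa4l2 is a paralogue of Ndufa4 that is induced in hypoxia and is also known from pericytes. Ndufa4 carries a complex I name but was later assigned to complex IV. Ndufa4l2 had levels of -2.60 and -0.85 on the ACKR4-negative arrays against -5.66 and -4.93 on the ACKR4-positive ones, where it was not well above background, so it was tested only through the ACKR4-negative arrays, where it is high. The groups did not overlap, and the difference was -3.06 in sort 1 and -4.08 in sort 2. The fitted signal was 11.9-fold higher in ACKR4-negative cells (log2 fold change -3.57 ± 0.68, adjusted p = 0.0666, and 0.00222 with the replicate block, in limma). That is an estimate and not a lower limit, and without the block the 95% interval of the log2 value was -5.38 to -1.76. Leaving out single arrays gave -4.45 to -2.69, with the smallest difference without ACKR4-negative replicate 2, and normexp background correction gave -1.87 (adjusted p = 0.164 in limma). The -4.45, without ACKR4-negative replicate 1, passed the threshold (adjusted p = 0.0342 in limma), in a fit whose spread comes only from ACKR4-positive arrays on which the probe was not well above background, so that the lone ACKR4-negative array is assumed to vary like them. The file places its probe on chromosome 10 from 126954149 to 126954208 (mm9). Ndufa4 had levels of 4.91 and 5.60 against 4.97 and 5.98, with overlap (0.22 ± 0.48).

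Pericyte and smooth muscle genes were lower in ACKR4-positive cells as well. Of 14 such genes 12 were tested, all 12 were lower in both sorts, 4 were called lower (10 with the replicate block), and their median log2 fold change was -3.55. Over all genes 3.71% were called lower, and 8.55% with the block. The summed level of the 14 was 87.3 to 124 in ACKR4-negative and 11.2 to 18.5 in ACKR4-positive cells, and 0 of the 14 were below background on all arrays. On each ACKR4-negative array 13 were well above background, against 9 and 8 on the ACKR4-positive ones. Some were thus tested only through the ACKR4-negative arrays, where they are high, and their calls give no support for a difference. Higd1b, another gene of pericytes and hypoxia, had a log2 fold change of -0.46 ± 0.46. The part of pericytes in the value of Ndufa4l2 was not tested.

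**Figure D2:**
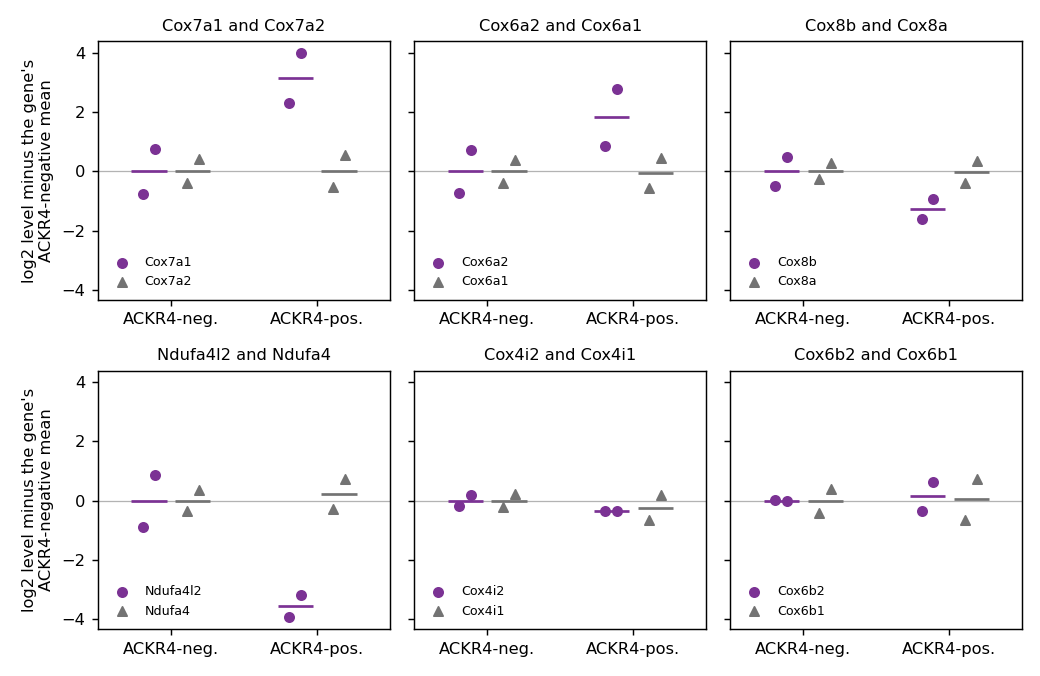
Log2 level on each array minus the mean of the same gene in ACKR4-negative cells, for 6 restricted isoforms (circles) beside their widely expressed counterparts (triangles), with bars at group means (n = 2) and replicate 1 to the left of replicate 2. The mean difference is 3.16 for Cox7a1 and -3.57 for Ndufa4l2, against 0.01 for Cox7a2 and 0.22 for Ndufa4.

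Complex V members had a median log2 fold change of -0.11. The 5 genes of the catalytic head, Atp5a1, Atp5b, Atp5c1, Atp5d and Atp5e, had a median of -0.11, and the 4 of the peripheral stalk, Atp5f1, Atp5h, Atp5j and Atp5o, of -0.15. Atp5b, the catalytic beta subunit, had levels of 6.13 and 6.10 on the ACKR4-negative arrays against 5.64 and 5.91 on the ACKR4-positive ones. The groups did not overlap, with lower values in ACKR4-positive cells in both sorts (-0.34 ± 0.27, adjusted p = 0.694 in limma). Atp5g1, Atp5g2 and Atp5g3 encode the same ring protein with different import signals, and had log2 fold changes of 0.03 ± 0.51, -0.31 ± 0.44 and 0.001 ± 0.55. Of the 3 names that are not ATP synthase subunits, Atp5s, now called Dmac2l, stood at 0.53 ± 0.31, Atp5sl, now Dmac2, at -0.19, and Atp5c1-ps, a pseudogene whose probe may share signal with Atp5c1, at -0.29.

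The sorts differed more than the groups for most members. Within ACKR4-negative cells the median member was 0.55 higher on the log2 scale in replicate 2 than in replicate 1, and within ACKR4-positive cells 0.93 higher, against 0.13 and 0.18 over all genes. In both groups at once, 74 of 83 members (89.2%) were higher in replicate 2, against 48.1% of all genes. The median difference between groups was -0.17 in sort 1, with 25 of 83 members higher in ACKR4-positive cells, and 0.21 in sort 2, with 66 of 83. Without ACKR4-negative replicate 1 the median log2 fold change of the members was -0.27, without ACKR4-negative replicate 2 it was 0.30, without ACKR4-positive replicate 1 it was 0.48 and without ACKR4-positive replicate 2 it was -0.42. The median of the members therefore had no stable direction.

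**Figure D3:**
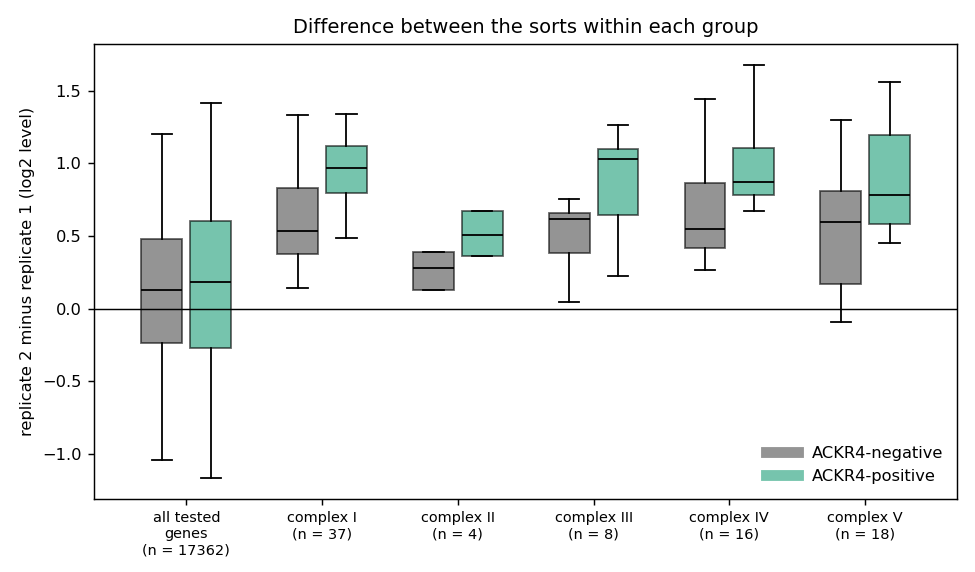
Log2 level in replicate 2 minus that in replicate 1 within each group, for all tested genes and for each complex. Boxes span the quartiles with the median as a line, and whiskers reach the 5th and 95th percentiles. The medians of complex I are 0.54 in ACKR4-negative and 0.97 in ACKR4-positive cells, against 0.13 and 0.18 over all genes.

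Subunits encoded in mitochondrial DNA showed the same pattern between sorts, with medians of 0.75 and 1.22 for replicate 2 minus replicate 1 in ACKR4-negative and ACKR4-positive cells. Of these 13 genes 0 were called (limma, 1 at an unadjusted p under 0.05), and their median log2 fold change between groups was 0.02. ND6, the gene of complex I that is read from the opposite strand to the others, had levels of 1.17 and 1.05 on the ACKR4-negative arrays against -0.33 and 0.03 on the ACKR4-positive ones. It was lower without overlap (-1.26 ± 0.29, adjusted p = 0.105, and 0.0254 with the replicate block, in limma). ND5, another complex I gene, had levels of 6.68 and 7.36 against 6.87 and 8.21, with overlap.

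Of 43 assembly factors, which build the complexes without being part of them, 0 were called in either direction (limma, with or without the block, and 0 at an unadjusted p under 0.05), with a median of 0.07. Bcs1l, which inserts the Rieske protein into complex III, and Ndufaf4, a complex I factor, had the smallest p of the list, at 0.72 ± 0.32 and -0.60 ± 0.28. Of 18 import genes and 78 mitochondrial ribosome genes 0 were called (limma, 1 and 2 at an unadjusted p under 0.05), with medians of -0.02 and -0.03. Tomm70a and Tomm40, both of the outer membrane import machinery, had log2 fold changes of 0.83 ± 0.28 and -0.31 ± 0.27, and the ribosomal genes Mrpl46 and Mrps11 of -1.24 ± 0.37 (adjusted p = 0.0332 with the replicate block in limma) and -1.08 ± 0.37.

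Of 20 regulators of mitochondrial biogenesis 0 were called (limma, 1 at an unadjusted p under 0.05), 12 were lower and 4 higher in both sorts, and the median was -0.17. Over all genes 34.5% were lower and 38.6% higher in both sorts. Twnk, the mitochondrial helicase, and Gabpa, a transcription factor of respiratory chain genes, had values of -0.88 ± 0.31 and 0.77 ± 0.33. Ppargc1a and Ppargc1b, coactivators of mitochondrial genes, were not well above background on any array. The log2 fold changes of 22 electron carriers and chain regulators ran from -3.59 to 2.28, with a median of 0.13. In both sorts 12 of them were higher and 7 lower. Of the 22, 0 were called without the block (limma, 3 at an unadjusted p under 0.05), against 5.62% of all genes. With the block 2 were called higher, against 6.75% of all genes. These were Coq8a, needed for coenzyme Q synthesis, and the aldehyde oxidase gene Aox1, which was on the list although it is no part of the chain. Coq8a had levels of -0.42 and 0.56 on the ACKR4-negative arrays against 1.95 and 2.51 on the ACKR4-positive ones (2.16 ± 0.46, adjusted p = 0.0853, and 0.00418 with the replicate block, in limma). Aox1 stood at 2.28 ± 0.48 (adjusted p = 0.00285 with the replicate block in limma).

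Glycolytic genes held 1 call among 20, a fall, and 13 members were lower and 4 higher in both sorts, with a median of -0.46. Over all genes 5.62% were called, and 34.5% were lower and 38.6% higher in both sorts. Slc16a3, the lactate exporter MCT4, had levels of 6.08 and 6.00 on the ACKR4-negative arrays against 1.08 and 1.30 on the ACKR4-positive ones. It fell by 4.85 on the log2 scale, without overlap (-4.85 ± 0.27, adjusted p = 0.00706 in limma). With the replicate block 2 glycolytic genes were higher and 5 lower, against 6.75% and 8.55% of all genes. Hypoxia genes held 1 call among 13, the rise of Ndrg1, from levels of 2.84 and 3.05 to 4.74 and 4.93 (1.89 ± 0.28, adjusted p = 0.0352 in limma), with a list median of -0.12. With the replicate block 2 hypoxia genes were higher and 1 lower, beside those same shares of all genes. Of 18 genes of the tricarboxylic acid cycle 0 were called (limma, 2 at an unadjusted p under 0.05) and the median was -0.18. Pcx, which makes oxaloacetate from pyruvate, had a log2 fold change of -2.12 ± 0.48 (adjusted p = 0.101, and 0.00498 with the replicate block, in limma), and Idh2 of -0.98 ± 0.31.

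Cytosolic ribosomal genes were lower in ACKR4-positive cells in both sorts for 82 of 101 names, 0 of them called (limma, 2 at an unadjusted p under 0.05), with a median of -0.37. Over all genes 34.5% were lower in both sorts. The name pattern also took Rps6k kinase genes, which are no ribosomal proteins. Among them Rps6ka1 and Rps6kl1 had the smallest p, at -1.48 ± 0.26 and 0.77 ± 0.28. Without these kinases, a choice made after their values were seen, 79 of 91 were lower in both sorts and the median was -0.37. Genes of megakaryocytes and platelets held 10 falls among 12, with a median of -7.31 and summed levels of 103 to 236 in ACKR4-negative and 1.28 to 2.78 in ACKR4-positive cells. Over all genes 3.71% were called lower. All 12 were well above background on the ACKR4-negative arrays, against 6 and 8 on the ACKR4-positive ones. Some genes of this list and of the erythroid list were thus tested only through the ACKR4-negative arrays, where they are high. The calls of such genes give no support for a difference. Among markers of other blood and stromal cells, 3 of 8 erythroid genes were called lower (4 with the replicate block), with a median of -2.32. Only 4 of these 8 were lower in both sorts, and their median was -4.67 in sort 1 and -0.73 in sort 2. In sort 2 the summed erythroid level was 30.9 in ACKR4-negative and 69.4 in ACKR4-positive cells. Of 7 lymphocyte genes 1 was called lower, and 0 of 9 macrophage, 0 of 3 granulocyte and 0 of 5 fibroblastic reticular cell genes were called (limma, with 2, 0 and 3 of the latter at an unadjusted p under 0.05). With the replicate block 3 macrophage, 1 granulocyte and 3 fibroblastic reticular cell genes were called lower, against 8.55% of all genes. On ACKR4-positive replicate 1 only 5 lymphocyte, 7 macrophage, 2 granulocyte and 4 fibroblastic reticular cell genes were well above background. Some tested genes of these lists thus passed the filter only through the ACKR4-negative arrays, and calls of such genes give no support for a difference. The fibroblastic reticular cell list had a median of -1.74, with 4 of 5 lower in both sorts. Of the 9 macrophage genes 5 were lower and 1 higher in both sorts, with a median of -0.23. Their summed level was nevertheless higher with ACKR4, at 36.6 against 27.0 in sort 1 and 46.2 against 31.5 in sort 2. The part of platelets and erythroid cells in the values of the members was not tested.

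**Figure D4:**
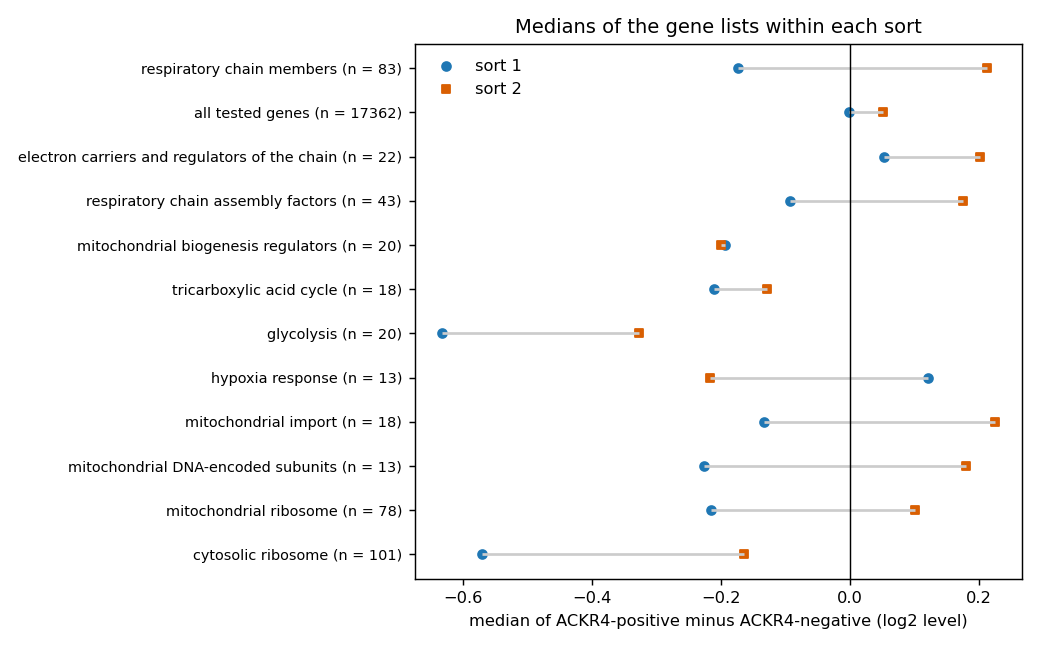
Median difference in log2 level between ACKR4-positive and ACKR4-negative cells within sort 1 (circles) and sort 2 (squares) for the respiratory chain members, all tested genes and 10 lists of related genes, with the number of tested genes. The members stand at -0.17 in sort 1 and 0.21 in sort 2. Glycolysis, the tricarboxylic acid cycle, biogenesis regulators and the cytosolic ribosome lie below 0 in both sorts.

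Promoter sequence is shown for 2 isoform pairs in which 1 gene, Cox7a1 or Cox8b, was called in the fit with the replicate block and its counterpart, Cox7a2 or Cox8a, was not. RefSeq promoters (GRCm38.p6, from 250 bases before to 50 after the start) were matched for 69 of the 85 members, those of Cox6a2 and Ndufa4l2 not among them. The 250 bases before the start are shown 5′ to 3′ on the strand of the gene for Cox7a1 at chr7:30183921-30184170 (+ strand), Cox7a2 at chr9:79759854-79760103 (- strand), Cox8b at chr7:140900447-140900696 (- strand) and Cox8a at chr19:7217617-7217866 (- strand), with CpG dinucleotides in capitals.
Cox7a1: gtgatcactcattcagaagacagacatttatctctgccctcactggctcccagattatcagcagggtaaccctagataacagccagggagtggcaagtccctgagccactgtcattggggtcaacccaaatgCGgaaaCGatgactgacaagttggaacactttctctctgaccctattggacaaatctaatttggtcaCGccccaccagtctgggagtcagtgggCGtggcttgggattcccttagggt
Cox7a2: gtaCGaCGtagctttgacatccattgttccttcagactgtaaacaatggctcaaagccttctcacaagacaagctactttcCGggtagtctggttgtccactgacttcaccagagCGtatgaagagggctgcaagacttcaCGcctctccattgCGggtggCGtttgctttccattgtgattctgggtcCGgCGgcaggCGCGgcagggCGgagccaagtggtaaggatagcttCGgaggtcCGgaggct
Cox8b: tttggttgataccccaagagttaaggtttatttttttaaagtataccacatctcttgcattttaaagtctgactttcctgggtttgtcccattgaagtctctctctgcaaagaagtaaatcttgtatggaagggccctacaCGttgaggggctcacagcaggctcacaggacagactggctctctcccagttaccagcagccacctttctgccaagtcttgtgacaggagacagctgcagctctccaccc
Cox8a: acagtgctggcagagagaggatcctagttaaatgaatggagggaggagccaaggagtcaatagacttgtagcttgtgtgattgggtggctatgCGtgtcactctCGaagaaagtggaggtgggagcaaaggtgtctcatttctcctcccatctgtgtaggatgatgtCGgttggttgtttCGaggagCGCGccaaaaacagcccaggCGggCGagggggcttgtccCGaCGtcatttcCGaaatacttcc
The Cox7a1 and Cox8b sequences held 4 and 1 CpG dinucleotides, and those of Cox7a2 and Cox8a held 14 and 11. The ratio of observed to expected CpG over the 300 bases was 0.33 for Cox7a1 and 0.11 for Cox8b, 0.83 for Cox7a2 and 0.84 for Cox8a, with a median of 0.81 over the 69 members and 0.39 over all 27025 promoters.

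Motifs were searched on both strands of the 300 bases as plain letters, and some can overlap one another. The NRF1 motif, GCGC followed after any 2 bases by GCGC, was present in 17 of 69 members (24.6%) and in 6.47% of all promoters. The ETS motif CCGGAAG, which GABPA can bind, was in 15 (21.7%) against 9.14%, and the YY1 motif AAGATGGCG in 7 (10.1%) against 1.48%. The MEF2 motif, CTA followed after any 4 bases by TAG and known from muscle genes, was in 1 (1.45%) against 3.70%, and ACGTG, the core of hypoxia elements, in 19 (27.5%) against 19.6%. Neither Cox7a1 nor Cox8b held the NRF1, ETS, YY1 or MEF2 letters, while both held ACGTG, and Cox8a held the ETS letters in 2 places.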

How the data were processed

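RNA of 4 samples was measured on 1-colour arrays. Per the file headers and the submitters' processing notes, the authors used Agilent Feature Extraction 10.7.3.1, which gives an intensity after background subtraction and spatial detrending of every array. The deposited value table holds intensity with each array's 75th percentile at 1498 to 1506 and a floor of 15, and served as an alternative. Spot flags of the file headers, deposited as other columns, marked outliers (1.91% to 1.96% of spots, left out) and spots well above background. The log2 signal of the 4 spots of a probe was averaged, and the array's 75th percentile subtracted. Tests took probes for which a share of spots over 0.5 passed that background flag on each array of a group, and the brightest such probe stood for a gene. Of the probes, 27508 were named by RefSeq accession, 3544 carried a current symbol, 167 were named through another probe of the gene and 8210 kept the file's name. Probe positions are those of the files, on mm9, and exons were not assigned here.

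Groups were compared with limma 3.58.1 (R 4.3.3, 2-sided, Benjamini-Hochberg over all 17362 tested genes, threshold 0.05). The fit without the block was tested on simulated arrays with known changes and no difference between sorts. The fit with the block was not simulated. The labels give both arrays of a sort the same mouse number, and deviations from group means correlated at 0.605 between arrays of the same sort. Nothing says more of replicate cultures or animals than the 2 pools, so p-values measure the spread between these pools. In limma the spread of each gene is moderated toward that of all tested genes. With the replicate block, 4 arrays leave little spread of a gene's own, so calls and intervals rest mostly on that shared spread. The median SE with the block was 0.223 over the members and 0.222 over all genes, and without it 0.448 and 0.344. An exact permutation test of 2 arrays against 2 cannot go below p = 0.333. Other versions were Python 3.11.15, pandas 2.3.3 and matplotlib 3.10.9.

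Members and lists were chosen with earlier results of these data known. Named were called members, the extremes and the brightest member of each complex, the isoform pairs, and from each of 10 pathway lists the called genes or the 2 with the smallest p. Members named beside these (Ndufv1, Ndufa8, the core, head and stalk subunits, Dmac2, Atp5c1-ps), Higd1b, Pecam1 and marker genes complete a group or a count and were chosen after their values were seen. Alternatives covered background correction, normalization, the filter, the deposited table, probe summary, flagged spots, the prior, the threshold, the replicate block and leaving out each array. With all arrays on 1 slide, no slide block could be fitted.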

Additional observations from a re-analysis of the deposited data

How the results depend on the processing

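Over all genes, 976 were called (332 higher, 644 lower), 441 with the stricter filter on dim probes (165 higher, 276 lower), 529 higher at an adjusted p under 0.1, and 2656 with the sort as a replicate block (1172 higher, 1484 lower). Without 1 array they were 387 to 892, with 75 to 295 higher and 312 to 597 lower. Members called higher numbered 0 in all fits run but the replicate block, which called 2, and 0 to 0 without 1 array. Members called lower were 0, 1 at an adjusted p under 0.1, 2 with the replicate block and 0 to 1 without 1 array. The pairing by block changed the call of Cox7a1, Cox6a2, Cox8b and Ndufa4l2 and of no other member.

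The median log2 fold change of the members went from -0.42 to 0.48 without 1 array, that of complex I from -0.37 to 0.63, complex II from -0.23 to 0.32, complex III from -0.46 to 0.33, complex IV from -0.41 to 0.49 and complex V from -0.51 to 0.38. Quantile normalization gave complex V 0.079. Apart from the block and the looser threshold, log2 fold changes were 2.32 to 4.00 for Cox7a1, 0.54 to 2.79 for Cox6a2, -1.78 to -0.71 for Cox8b and -4.45 to -1.87 for Ndufa4l2. Normexp, which adds an offset of 50, gave the smallest values for Cox6a2, Cox8b and Ndufa4l2. The stricter filter left out Cox6a2 and Ndufa4l2. Signal near background limits these 3 genes.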
